A study of Mus musculus with 45 samples.

Results

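The Nr4a orphan nuclear receptors are 3 genes, Nr4a1, Nr4a2 and Nr4a3, taken from the 54532 rows of the count table by matching Ensembl gene IDs to mouse symbols. All 3 were found and all 3 passed the filter of at least 1 read in every comparison. mRNA was sequenced from primary hippocampal neurons of newborn C57BL/6N mice on day in vitro 11 (10 or 11 in the labels), from 5 separate culture preparations numbered 1, 3, 6, 7 and 8. Each preparation gave 1 library in each of 9 conditions, 45 libraries in all, so that conditions could be compared within a preparation. In every treated condition the neurons were driven into bursts of action potential (AP) firing with bicuculline (Bic, 50 µM), which blocks GABA-A receptors, and the control received no Bic. The cultures had been treated with cytosine arabinoside, which limits dividing glial cells but need not remove them.

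Uninterrupted Bic was given for 0.5 h, 1 h or 2 h. In the short protocol (SP), 0.5 h of Bic was followed by a further 0.5 h with tetrodotoxin (TTX, 1 µM), a blocker of voltage-gated sodium channels that stops AP firing, or with TTX together with NMDA (30 µM), which opens NMDA receptors in and outside synapses. In the long protocol (LP), Bic ran alone for 1 h, and for the next 1 h either TTX, TTX/NMDA or TBOA (50 µM), a blocker of glutamate uptake, was present as well. Bic stayed in the medium throughout. The effect of TTX against uninterrupted Bic of the same total duration is called passive here, that of TTX/NMDA against TTX active, that of TTX/NMDA against Bic total, and that of TBOA against 2 h Bic spillover. Because each intervention follows Bic, none of these conditions shows the action of TTX, NMDA or TBOA on quiet neurons.

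Nuclear receptors are transcription factors that mostly respond to ligands such as steroids or retinoids. The Nr4a receptors are orphans that act without a known classical ligand, so that their amount, set mainly by transcription, is a main point of control. They are immediate early genes, which calcium entry and cAMP switch on without new protein synthesis, through CREB and other factors. Nr4a1 (Nur77), Nr4a2 (Nurr1) and Nr4a3 (Nor1) bind the same DNA element as monomers, and Nr4a1 and Nr4a2 also pair with retinoid X receptors. In the hippocampus they are known for roles in memory and in the protection of neurons, and Nr4a2 also for the making of dopamine neurons.

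The stretch of 250 bases before each RefSeq start (build GRCm38.p6) is shown because the matches in it set the 3 genes apart from most promoters by a feature that the expression values did not enter. Capitals mark TGACG on either strand, the core of the cAMP response element that CREB binds. For Nr4a3 the first 98 bases are printed, up to the first annotated transcript start, and they hold 3 of its matches.
Nr4a1 (chr15:101266596-101266845, plus strand): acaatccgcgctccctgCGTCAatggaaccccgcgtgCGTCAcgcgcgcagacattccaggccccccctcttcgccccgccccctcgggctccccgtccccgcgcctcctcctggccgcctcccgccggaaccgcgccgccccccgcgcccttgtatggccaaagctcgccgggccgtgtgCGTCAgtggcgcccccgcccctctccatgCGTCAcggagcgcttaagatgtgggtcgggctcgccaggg
Nr4a2 (chr2:57124004-57124253, minus strand): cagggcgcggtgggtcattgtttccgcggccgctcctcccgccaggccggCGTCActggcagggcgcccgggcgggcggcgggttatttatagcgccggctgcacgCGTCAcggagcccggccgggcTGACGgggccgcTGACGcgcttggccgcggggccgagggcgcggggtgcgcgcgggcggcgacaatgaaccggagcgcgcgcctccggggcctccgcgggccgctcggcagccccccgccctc
Nr4a3 (chr4:48045055-48045152, plus strand): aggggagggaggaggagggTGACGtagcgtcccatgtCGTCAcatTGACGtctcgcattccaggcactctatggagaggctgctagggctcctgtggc
Each of the 3 windows of 250 bases held 4 matches. Among 32851 RefSeq windows of this length, 17.8% held at least 1 and 0.137% held at least 4. G and C made up 74.4% of the Nr4a1 window, 80.0% of the Nr4a2 window and 63.6% of the Nr4a3 window. The windows they were set against were not matched for base composition, and its part in these counts was not tested. The first bases of the matches lay at −233, −213, −69 and −40 from the start in Nr4a1, at −200, −144, −123 and −111 in Nr4a2 and at −231, −213, −205 and −147 in Nr4a3. The full palindrome TGACGTCA, which would count as overlapping matches of the core on both strands, was in none of the 3 and in 1.55% of all windows. The Nr4a monomer element AAAGGTCA was in none of the 3 and in 1.34% of all windows, and a CArG box, which SRF binds, was in none of the 3 and in 1.47%. TATAA, the letters of a TATA box, was sought on either strand and stood in 22.8% of all windows. In the window of Nr4a2 it stood only on the strand opposite to the gene, as ttata in the printed sequence. A match describes the letters of the window only, and says nothing about binding.

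The deposited identifiers were ENSMUSG00000023034 for Nr4a1, ENSMUSG00000026826 for Nr4a2 and ENSMUSG00000028341 for Nr4a3. In the GENCODE M21 annotation of GRCm38, the Nr4a1 model spans 101254269 to 101274795 on chromosome 15, plus strand, and the window above lies in an intron of its longest transcript. Nr4a2 spans 57106830 to 57124003 on chromosome 2, minus strand, and its window begins at the next base. Nr4a3 spans 48045153 to 48086447 on chromosome 4, plus strand, so that the longest transcript starts inside the window. The models hold 3509, 4059 and 5987 exonic bases. No other gene model overlapped a member. Within 20000 bp lay Atg101, an autophagy gene 9477 bp from Nr4a1 on the same strand, and the little-known models 6030408B16Rik near Nr4a1 and BB557941, 3476 bp from Nr4a2. Against control, Atg101 differed in 2 h Bic by a log2 fold change of 0.26 (SE 0.08, adjusted p = 0.045 in edgeR), while 6030408B16Rik and BB557941 stayed under 1 CPM in every library.

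The total counts ran from 11316580 to 81129276 per library (median 26239614), a 7.17-fold range, and the members held 468 to 78724 reads in a library. Levels are given in CPM, read counts brought to the same library size with TMM factors over all 45 libraries, and values of the 5 libraries stand in the order of preparations 1, 3, 6, 7 and 8. The markers of neurons (Rbfox3, Map2, Tubb3, Syn1, Snap25) summed to 3754 to 4983 CPM per library, those of excitatory neurons to 1043 to 2787 CPM, those of inhibitory neurons to 1134 to 2302 CPM, those of astrocytes to 353 to 1345 CPM, those of the oligodendrocyte lineage to 99 to 308 CPM. Those of microglia reached at most 5.79 CPM and those of endothelium 5.56 CPM, and in each of these lists 1 marker was at 0 in at least 1 library. In such bulk samples, fewer cells of a type and less RNA per cell cannot be told apart. Preparation 1 gave the lowest library in 12 of the 27 sets of 5 (3 genes in 9 conditions) and the highest in 0. Differences were called at an adjusted p under 0.05 in edgeR's quasi-likelihood test over all genes of a comparison.

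**Figure D1:**
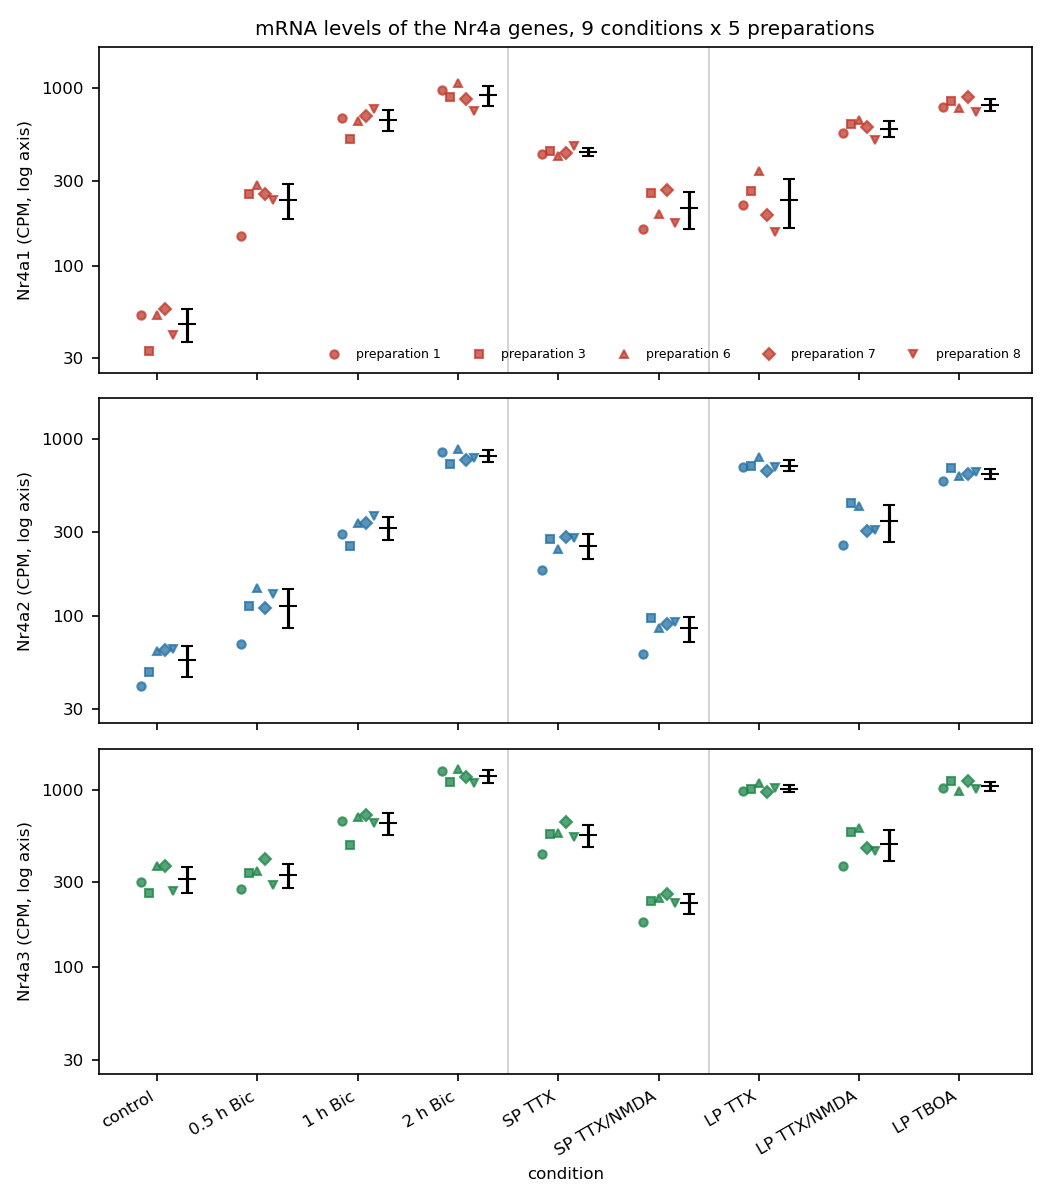
Level of each gene (CPM, log axis) in the 9 conditions. Points are the 5 preparations, with a symbol for each, and the black bar is the mean with its SD. The mean of Nr4a1 in LP TTX, 234.5 CPM, lies below that in 1 h Bic, 660.5 CPM, while the means of Nr4a2 and Nr4a3 in LP TTX lie above theirs in 1 h Bic.

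In unstimulated neurons Nr4a3 was the most abundant of the 3 mRNAs when exon length was taken into account. Its control libraries held 300.1, 263, 371, 370.0 and 270.2 CPM. Nr4a1 held 52.6, 33.2, 52.4, 57.1 and 40.7 CPM, and Nr4a2 held 40.7, 48.7, 64.2, 64.8 and 65.5 CPM. Per kilobase of exon the control means were 52.6 ± 8.78 CPM for Nr4a3, 13.4 ± 2.82 CPM for Nr4a1 and 14 ± 2.81 CPM for Nr4a2 (SD, n = 5). Nr4a3 thus made up 65.7% ± 2.17 of the family's summed CPM per kilobase in control (SD, n = 5). Among 13584 genes with a mean of at least 1 CPM and a known length, Nr4a3 was number 854 by control level per kilobase, Nr4a2 number 3594 and Nr4a1 number 3717.

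AP firing raised Nr4a1 and Nr4a2 within 0.5 h and Nr4a3 by 1 h. After 0.5 h of Bic, Nr4a1 held 147, 254, 283, 253 and 235 CPM, every library above every control library, and its log2 fold change against control was 2.31 (SE 0.12, adjusted p = 2.9e-22 in edgeR). Nr4a2 held 69.7, 114, 144, 112 and 134 CPM, again without overlap, with a log2 fold change of 1.01 (SE 0.12, adjusted p = 1.2e-08). Nr4a3 held 277, 338, 348, 406 and 289 CPM, which overlapped the control libraries, was above its own control in 3 of 5 preparations and gave a log2 fold change of 0.07 (SE 0.10, 95% interval −0.12 to 0.27, adjusted p = 0.91). So 2 of 3 members were called higher, where 0.289% of all genes tested were. In preparation 1 all 3 genes had their lowest 0.5 h library, and without it the log2 fold change of Nr4a1 was 2.48.

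After 1 h of Bic all 3 members were called higher than in control, where 0.965% of all genes were. Nr4a1 held 681, 517, 651, 696 and 758 CPM, 14.3-fold ± 2.74 its control over the preparations (SD, n = 5). Nr4a2 held 292, 249, 336, 336 and 368 CPM, 5.66-fold ± 0.861. Nr4a3 held 668, 487, 701, 724 and 647 CPM, 2.06-fold ± 0.236. None of these libraries overlapped a control library, and the log2 fold changes were 3.80 (SE 0.12), 2.47 (SE 0.11) and 1.03 (SE 0.10), with adjusted p = 2.7e-26, 9.6e-21 and 5.6e-10 in edgeR. Nr4a1 now made up 50.3% ± 1.6 of the family's CPM per kilobase and Nr4a3 28.8% ± 1.78 (SD, n = 5).

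After 2 h all 3 were called higher again, against 4.24% of all genes. Nr4a1 held 973, 889, 1059.6, 869 and 743 CPM (log2 fold change against control 4.25, SE 0.12). Nr4a2 held 844, 723, 878, 763 and 781 CPM (3.79, SE 0.11), and Nr4a3 held 1272, 1099, 1306, 1171 and 1084 CPM (1.90, SE 0.10). All 3 had adjusted p of 2e-17 or less in edgeR. Per kilobase, the means of Nr4a2 and Nr4a3 were 197 ± 15.4 and 198 ± 16.7 CPM, beside 258 ± 33.8 CPM for Nr4a1 (SD, n = 5). By level per kilobase Nr4a1 was number 101 among the 13584 genes, Nr4a3 number 148 and Nr4a2 number 152. The comparisons with control share the control libraries.

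The steps between the Bic times showed when each gene climbed. From 0.5 to 1 h all 3 were called higher (0.634% of all genes were), with log2 fold changes of 1.49 (SE 0.10) for Nr4a1, 1.46 (SE 0.10) for Nr4a2 and 0.96 (SE 0.09) for Nr4a3. From 1 to 2 h all 3 were called higher again (2.53% of all genes were), but Nr4a1 by only 0.45 (SE 0.08, adjusted p = 0.00023 in edgeR), with overlapping libraries and a rise in 4 of 5 preparations. Over that hour Nr4a2 rose by 1.33 (SE 0.08) and Nr4a3 by 0.87 (SE 0.08) on the log2 scale, each in 5 of 5 preparations and with no overlap.

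Whether the members differed from each other in these inductions was tested on the ratio of their counts within a library, which no scaling of libraries can change. Of 30 such tests (3 pairs of genes in 10 comparisons), 19 passed at an adjusted p under 0.05 in an exact two-sided permutation test, whose smallest p with 5 against 5 libraries is 0.0079. The Nr4a2 to Nr4a1 ratio fell by 1.31 on the log2 scale at 0.5 h and by 1.33 at 1 h against control, in 5 of 5 preparations each (adjusted p = 0.014, exact permutation test). At 2 h its difference was −0.45, below control in 4 of 5 preparations (adjusted p = 0.091, exact permutation test). The Nr4a3 to Nr4a1 ratio differed by −2.23, −2.79 and −2.36 at the 3 times, and the Nr4a3 to Nr4a2 ratio by −0.92, −1.45 and −1.91, each lower in 5 of 5 preparations (adjusted p = 0.014, exact permutation test).

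**Figure D2:**
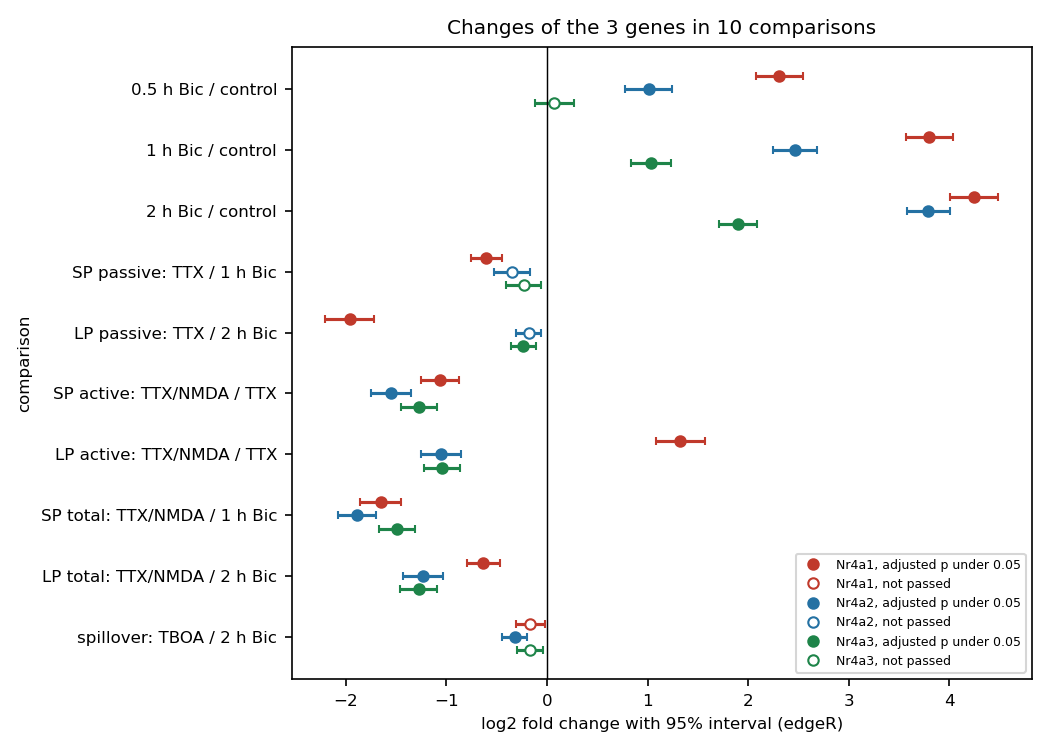
Log2 fold changes from edgeR with 95% intervals (x axis) of Nr4a1, Nr4a2 and Nr4a3 in 10 comparisons (y axis). Filled points passed an adjusted p of 0.05 and open points did not. In the LP active effect Nr4a1 lies at 1.33 and the other members at −1.05 and −1.04.

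Stopping AP firing after 0.5 h lowered Nr4a1 but none of the other members below uninterrupted firing at an adjusted p under 0.05. In SP TTX, Nr4a1 held 425, 442, 414, 431 and 471 CPM, every library below every 1 h Bic library, and its log2 fold change was −0.60 (SE 0.08, adjusted p = 3.4e-06 in edgeR). Thus 1 of 3 members was called lower, where 0.252% of all genes were. Nr4a2 held 183, 272, 240, 279.8 and 276 CPM and Nr4a3 held 434, 565, 567, 656 and 542 CPM. Each was below 1 h Bic in 4 of 5 preparations and overlapped it, with log2 fold changes of −0.34 (SE 0.09, adjusted p = 0.14) and −0.23 (SE 0.09, adjusted p = 0.88) in edgeR. Preparation 3 was the exception for both, and without it the changes were −0.45 (adjusted p = 5.3e-05) and −0.32 (adjusted p = 0.023), while without preparation 8 Nr4a2 also passed (−0.32, adjusted p = 0.012). With the preparation as a block, the adjusted p of Nr4a2 was 0.15 over genes passing edgeR's filterByExpr and 1.5e-08 over genes with at least 1 read, and those of Nr4a3 were 0.50 and 0.00061.

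All 3 mRNAs still climbed while firing was blocked in the short protocol. Against 0.5 h Bic, the time at which TTX was added, SP TTX was higher by a log2 fold change of 0.89 (SE 0.09) for Nr4a1, 1.11 (SE 0.10) for Nr4a2 and 0.73 (SE 0.09) for Nr4a3. Each rose in 5 of 5 preparations with no overlap, and 3 of 3 members were called higher where 0.296% of all genes were (adjusted p = 8.7e-11, 1.2e-12 and 9.5e-09 in edgeR). After TTX, Nr4a1 stood at 196% ± 55.8 of its level when firing stopped, Nr4a2 at 225% ± 38.5 and Nr4a3 at 167% ± 12.1 (SD, n = 5).

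In the long protocol the members parted. In LP TTX, Nr4a1 held 220.1, 263, 343, 193 and 154 CPM, every library far below the lowest 2 h Bic library, 743 CPM. Over the 5 preparations its change from 2 h Bic ranged from −79.3% to −67.7%. Nr4a2 held 691, 699, 790.0, 661 and 693 CPM, which overlapped 2 h Bic and was lower in 5 of 5 preparations (log2 fold change −0.18, SE 0.06, adjusted p = 0.11 in edgeR). With the preparation as a block Nr4a2 was called lower, with adjusted p = 0.0014 over genes passing filterByExpr and 2.5e-05 over genes with at least 1 read, and likewise in DESeq2 (adjusted p = 0.041). Nr4a3 held 979, 1014, 1096, 966 and 1015 CPM, lower in 5 of 5 preparations though overlapping (−0.24, SE 0.06, adjusted p = 0.023 in edgeR). That call was lost without preparation 1, 6 or 7 (adjusted p = 0.13, 0.057 and 0.11) and in a fit over all 45 libraries (adjusted p = 0.35). With Nr4a1 at −1.96 (SE 0.12), 2 of 3 members were called lower, where 1.62% of all genes were.

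Set against 1 h Bic, when TTX was added, LP TTX was lower for Nr4a1 and higher for the other members. The log2 fold change was −1.50 for Nr4a1 (SE 0.12, adjusted p = 1.9e-12 in edgeR), 1.15 for Nr4a2 (SE 0.08, adjusted p = 2.6e-14) and 0.64 for Nr4a3 (SE 0.08, adjusted p = 7.4e-08). None of these overlapped, and each held in 5 of 5 preparations. Lower calls were made for 2.85% of all genes and higher calls for 4.34%. Nr4a1 fell to 36.8% ± 14.3 of its level when firing stopped, while Nr4a2 stood at 227% ± 37 and Nr4a3 at 160.3% ± 28.4 (SD, n = 5). Against control, all 3 were still called higher in LP TTX (4.33% of all genes were), by 2.30 (SE 0.14), 3.62 (SE 0.11) and 1.67 (SE 0.09) on the log2 scale.

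The difference in the passive effect between the protocols was tested as an interaction. For Nr4a1, the LP effect minus the SP effect was −1.36 on the log2 scale (SE 0.16, adjusted p = 7.4e-07 in edgeR), which made 1 of 3 members called lower where 0.0699% of all genes were. For Nr4a2 the term was 0.16 (95% interval −0.09 to 0.40, adjusted p = 0.98) and for Nr4a3 −0.01 (−0.24 to 0.22, adjusted p = 1.0). The intervention lasts longer in LP and starts later, so that these terms compare protocols and not a pure difference in time. Within libraries, the Nr4a2 to Nr4a1 ratio rose by 1.82 and the Nr4a3 to Nr4a1 ratio by 1.77 on the log2 scale in LP TTX against 2 h Bic (adjusted p = 0.014, exact permutation test, 5 of 5 preparations each). The Nr4a3 to Nr4a2 ratio differed by −0.05 (SD of the paired differences 0.07, adjusted p = 0.17, exact permutation test).

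**Figure D3:**
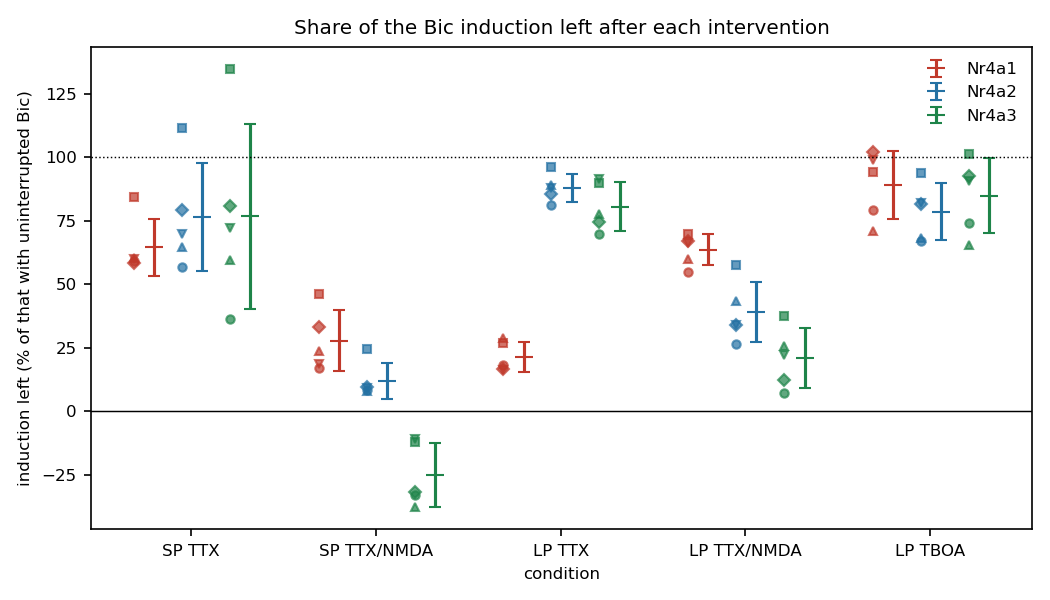
Share of the Bic induction left after each intervention, as the level above control in percent of the level above control in uninterrupted Bic of the same total duration (y axis). Points are preparations, bars are means with SD, and dotted and solid lines mark 100% and 0%. Nr4a1 kept 21.3% in LP TTX and 63.5% in LP TTX/NMDA, and Nr4a3 lies below 0% in SP TTX/NMDA in each of the 5 preparations.

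Adding NMDA to TTX in the short protocol lowered all 3 mRNAs, where 3.32% of all genes were called lower. Nr4a1 held 161, 256, 194, 268 and 173 CPM, with a log2 fold change against SP TTX of −1.06 (SE 0.10, adjusted p = 1.4e-09 in edgeR). Nr4a2 held 61.4, 97.5, 85.5, 90.5 and 92.7 CPM (−1.55, SE 0.10, adjusted p = 2.9e-13). Nr4a3 held 179, 236, 246, 257 and 229 CPM (−1.27, SE 0.09, adjusted p = 2.1e-12). No library overlapped SP TTX for any of the 3. Over the preparations the change with NMDA ranged from −67.7% to −64.1% for Nr4a2, from −60.8% to −56.6% for Nr4a3 and from −63.2% to −37.8% for Nr4a1.

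Nr4a3 in SP TTX/NMDA stood below its unstimulated level. Its highest library, 257 CPM, was under the lowest control library, 263 CPM, and the mean log2 difference of control over SP TTX/NMDA was 0.45, in 5 of 5 preparations (adjusted p = 0.027, exact permutation test over 24 pairs of neighbouring conditions). Nr4a1 in SP TTX/NMDA was above control by 2.15 on the log2 scale with no overlap (adjusted p = 0.027, exact permutation test). Nr4a2 was above its own control in 5 of 5 preparations by a mean of 0.60, but the libraries overlapped (adjusted p = 0.069, exact permutation test). Of the induction at 1 h Bic, Nr4a1 kept 27.7% ± 12, Nr4a2 11.8% ± 7.08 and Nr4a3 −25.1% ± 12.7 (SD, n = 5).

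Against 1 h Bic the total SP effect was a log2 fold change of −1.65 (SE 0.11) for Nr4a1, −1.89 (SE 0.10) for Nr4a2 and −1.49 (SE 0.09) for Nr4a3. All 3 members were called lower, where 3.41% of all genes were (adjusted p = 2.3e-14, 7.8e-17 and 5.4e-15 in edgeR). Against 0.5 h Bic, when TTX and NMDA were added, 2 of 3 members were called lower, where 2.58% of all genes were. Nr4a3 stood at −0.55 on the log2 scale (SE 0.09, adjusted p = 0.00011) with no overlap, and Nr4a2 at −0.44 (SE 0.12, adjusted p = 0.021) with overlap. The call for Nr4a2 was lost without preparation 6 (adjusted p = 0.059), over genes passing filterByExpr (0.12), in DESeq2 (0.061) and in a fit over all 45 libraries (0.070). For Nr4a1 the value was −0.17 (SE 0.12, 95% interval −0.41 to 0.06, adjusted p = 0.53 in edgeR), and with the preparation as a block the adjusted p was 0.15 over genes passing filterByExpr and 0.00022 over genes with at least 1 read. During TTX alone the same 3 genes had risen above 0.5 h Bic, and the SP TTX and SP TTX/NMDA comparisons share those 0.5 h libraries.

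In the long protocol NMDA moved Nr4a1 in the opposite direction to the other members. Nr4a1 held 556, 631, 656, 600.2 and 506 CPM in LP TTX/NMDA, every library above every LP TTX library, and was 2.65-fold ± 0.556 its LP TTX level over the preparations (SD, n = 5). Its log2 fold change was 1.33 (SE 0.12, adjusted p = 1.9e-09 in edgeR), where 11.6% of all genes were called higher. Nr4a2 held 252.5, 436, 417, 302 and 307 CPM and Nr4a3 held 370.3, 577, 610.1, 469 and 452 CPM, with no overlap with LP TTX. Their log2 fold changes were −1.05 (SE 0.10, adjusted p = 2.9e-09) and −1.04 (SE 0.09, adjusted p = 6.1e-10), where 11.8% of all genes were called lower. The median log2 fold change in this comparison was 0.11 over all 32852 genes tested and −0.01 over the 13592 genes with a mean of at least 1 CPM.

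The direction of the active effect on Nr4a1 thus turned between the protocols. The interaction term, LP minus SP, was 2.40 for Nr4a1 (SE 0.19, adjusted p = 1.2e-11 in edgeR), which made 1 of 3 members called higher where 0.722% of all genes were. For Nr4a2 it was 0.51 (SE 0.16, adjusted p = 0.089), and Nr4a2 was called without preparation 1 (adjusted p = 0.0066), without preparation 8 (0.016) and with the preparation as a block (0.016 over genes passing filterByExpr, 1.3e-11 over genes with at least 1 read). For Nr4a3 it was 0.25 (95% interval −0.03 to 0.52, adjusted p = 0.47), with block values of 0.17 and 0.0042. Within libraries, the Nr4a2 to Nr4a1 and Nr4a3 to Nr4a1 ratios fell by 2.45 and 2.43 on the log2 scale with NMDA in LP (adjusted p = 0.014 each, exact permutation test, 5 of 5 preparations). The Nr4a3 to Nr4a2 ratio differed by 0.02 (adjusted p = 0.68, exact permutation test), whereas in SP it had risen by 0.28 in 5 of 5 preparations (adjusted p = 0.014, exact permutation test).

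The rise of Nr4a1 with NMDA did not bring it back to the level of uninterrupted firing. Against 2 h Bic, the log2 fold change in LP TTX/NMDA was −0.63 for Nr4a1 (SE 0.08, adjusted p = 3.1e-07 in edgeR), −1.23 for Nr4a2 (SE 0.10, adjusted p = 9.5e-12) and −1.27 for Nr4a3 (SE 0.09, adjusted p = 1.2e-12). Each was lower in 5 of 5 preparations with no overlap. All 3 were called lower, where 11.1% of all genes were. Of the induction at 2 h Bic, 63.5% ± 6.08 was left for Nr4a1, 39% ± 11.9 for Nr4a2 and 21% ± 11.8 for Nr4a3 (SD, n = 5). In LP TTX the shares had been 21.3% ± 5.99, 87.9% ± 5.62 and 80.6% ± 9.57. By mean share left, Nr4a1 was the lowest of the 3 in LP TTX and the highest in LP TTX/NMDA. The LP TTX libraries enter the passive effect and the active effect with opposite signs, so that these effects are not independent of each other.

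Compared with 1 h Bic, when TTX and NMDA were added, 1 of 3 members was called lower in LP TTX/NMDA, where 10.2% of all genes were. This was Nr4a3, with a log2 fold change of −0.39 (SE 0.10, adjusted p = 0.003 in edgeR) and a lower level in 4 of 5 preparations. Nr4a1 stood at −0.17 (95% interval −0.34 to −0.01, adjusted p = 0.16), and passed without preparation 3 (adjusted p = 0.015) or 6 (0.046). With the preparation as a block its adjusted p was 0.21 over genes passing filterByExpr and 0.0037 over genes with at least 1 read. Nr4a2 stood at 0.10 (−0.10 to 0.31, adjusted p = 0.49), higher in 2 of 5 preparations.

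Markers of cell types moved with NMDA as well. The markers of excitatory neurons (Slc17a7, Slc17a6, Camk2a, Neurod6) summed to a mean of 1251 CPM in LP TTX/NMDA and 2367 CPM in LP TTX, and to 1716 CPM in SP TTX/NMDA and 2482 CPM in SP TTX. The general neuron markers summed to 3926 CPM in LP TTX/NMDA and 4808 CPM in LP TTX. The astrocyte markers summed to 947 CPM (651 to 1345 over libraries) in LP TTX/NMDA and 524 CPM (368 to 754) in LP TTX, and those of the oligodendrocyte lineage to 241 and 139.5 CPM. The inhibitory neuron markers (Gad1, Gad2, Slc32a1) summed to 1983 and 1719 CPM. In SP, inhibitory neuron markers summed to 1763 CPM with NMDA and 1368 CPM without, astrocyte markers to 605 and 636 CPM, those of the oligodendrocyte lineage to 181 and 161 CPM, and general neuron markers to 4335 and 4625 CPM. The part of these shifts in the Nr4a results was not tested.

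With glutamate uptake blocked, Nr4a2 was lower than under uninterrupted firing, and the other members did not pass the test. In LP TBOA, Nr4a1 held 780.2, 840, 767, 886 and 735 CPM, Nr4a2 held 578, 682, 620.1, 634 and 653 CPM, and Nr4a3 held 1020.1, 1111, 984, 1114 and 1008 CPM. Against 2 h Bic, Nr4a2 was lower in 5 of 5 preparations with no overlap (log2 fold change −0.32, SE 0.06, adjusted p = 0.0055 in edgeR), and so 1 of 3 members was called lower, where 0.549% of all genes were. That call was lost without preparation 1 (adjusted p = 0.079) and in a fit over all 45 libraries (0.61). Nr4a1 stood at −0.17 (95% interval −0.31 to −0.02, adjusted p = 0.56) and Nr4a3 at −0.17 (−0.29 to −0.04, adjusted p = 0.43), each lower in 4 of 5 preparations. With the preparation as a block, their adjusted p were 0.23 and 0.17 over genes passing filterByExpr, and 0.018 and 0.0082 over genes with at least 1 read.

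Among the ratios within libraries, TBOA raised Nr4a3 over Nr4a2 by 0.15 on the log2 scale in 5 of 5 preparations (adjusted p = 0.014, exact permutation test). The Nr4a2 to Nr4a1 ratio differed by −0.16, lower in 5 of 5 preparations (adjusted p = 0.13), and the Nr4a3 to Nr4a1 ratio by −0.01 (adjusted p = 0.88, exact permutation tests). Against LP TTX, the other intervention of the same timing, LP TBOA was higher for Nr4a1 by a log2 fold change of 1.78 (SE 0.11, adjusted p = 1.4e-14 in edgeR) with no overlap, so that 1 of 3 members was called higher, where 0.759% of all genes were. Nr4a2 stood at −0.15 (SE 0.07, adjusted p = 0.26) and Nr4a3 at 0.05 (SE 0.06, adjusted p = 0.72). With the preparation as a block the adjusted p of Nr4a2 was 0.15 over genes passing filterByExpr and 0.048 over genes with at least 1 read.

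**Figure D4:**
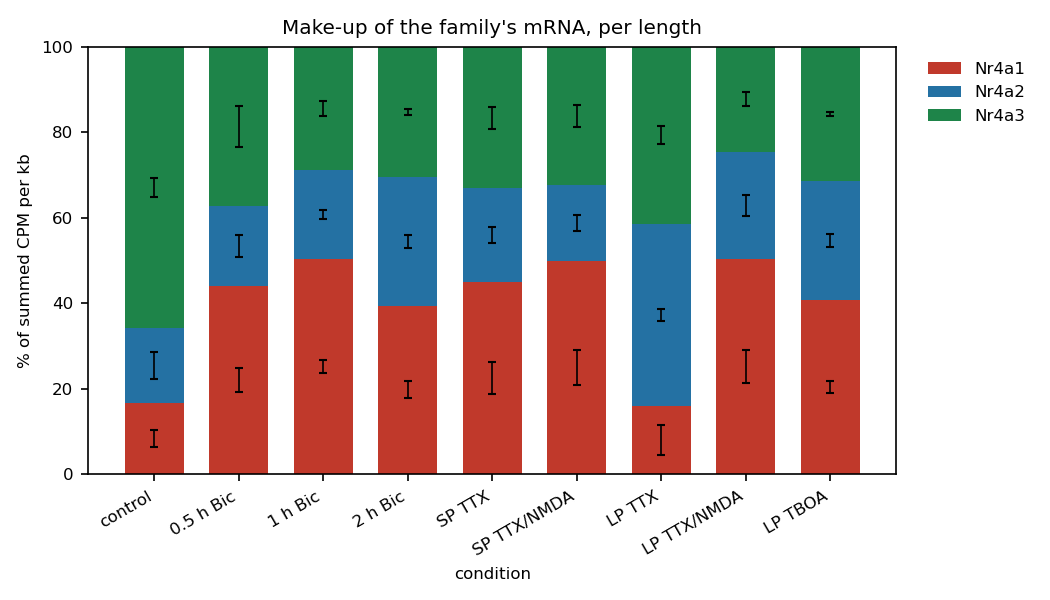
Share of each gene in the summed CPM per kilobase of the 3 genes (y axis, percent) in the 9 conditions. Bars are means over 5 preparations and black lines the SD of each share. Nr4a1 makes up 16.7% in control, 50.3% in 1 h Bic, 16.1% in LP TTX and 50.5% in LP TTX/NMDA.

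By mean CPM, the order of conditions for Nr4a1 ran from 2 h Bic through LP TBOA, 1 h Bic, LP TTX/NMDA, SP TTX, LP TTX, 0.5 h Bic and SP TTX/NMDA to control. For Nr4a2 it ran from 2 h Bic through LP TTX, LP TBOA, LP TTX/NMDA, 1 h Bic, SP TTX, 0.5 h Bic and SP TTX/NMDA to control. For Nr4a3 it ran from 2 h Bic through LP TBOA, LP TTX, 1 h Bic, SP TTX, LP TTX/NMDA, 0.5 h Bic and control to SP TTX/NMDA. Of the 24 pairs of neighbours in these orders, 10 differed at an adjusted p under 0.05 in an exact permutation test, 4 for Nr4a1 (LP TBOA over 1 h Bic, LP TTX/NMDA over SP TTX, SP TTX over LP TTX, SP TTX/NMDA over control), 3 for Nr4a2 (LP TTX over LP TBOA, LP TBOA over LP TTX/NMDA, SP TTX over 0.5 h Bic) and 3 for Nr4a3 (LP TTX over 1 h Bic, LP TTX/NMDA over 0.5 h Bic, control over SP TTX/NMDA). The other 14 did not pass this test, which sets the pairing by preparation aside. Of these, 3 differed the same way in 5 of 5 preparations, all for Nr4a2 (2 h Bic over LP TTX, 0.5 h Bic over SP TTX/NMDA and SP TTX/NMDA over control). The pair of 0.5 h Bic and SP TTX/NMDA was called in edgeR, and that of 2 h Bic and LP TTX was called there with the preparation as a block, as given above. The places of Nr4a1 in LP TTX and 0.5 h Bic cannot be ordered: the means were 234.5 and 234.3 CPM (adjusted p = 0.96, exact permutation test).

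Nr4a2 and Nr4a3 had more alike profiles than either had with Nr4a1. Over the 45 libraries Pearson's r of log2(CPM + 1) was 0.94 between Nr4a2 and Nr4a3, 0.77 between Nr4a1 and Nr4a2 and 0.65 between Nr4a1 and Nr4a3. These are descriptions, because the libraries share 5 preparations and the same treatments. Among 13591 other genes with a mean of at least 1 CPM, the 5 most like Nr4a1 were Gadd45g (r = 0.96), a stress-inducible growth regulator, Ier2 (0.96) and Npas4 (0.95), immediate early genes, Klf4 (0.95), a Krüppel-like factor, and Nfkbid (0.95), a nuclear IκB protein. Those most like Nr4a2 were Errfi1 (0.99), an inhibitor of EGF receptors, Tiparp (0.98), an ADP-ribosyltransferase, Nfil3 (0.98), a bZIP repressor, Fosl2 (0.98), an AP-1 subunit, and Per1 (0.98), a clock gene. Those most like Nr4a3 were Arl5b (0.97), an Arf-like GTPase, Cfap43 (0.97), known from cilia, Csrnp1 (0.96), a nuclear protein, Bdnf (0.96), the neurotrophin, and 1700086L19Rik (0.96).

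The levels of these genes showed the same parting in LP. Gadd45g had a mean of 359 CPM in 2 h Bic, 107 CPM in LP TTX and 306 CPM in LP TTX/NMDA, and Klf4 had 69.8, 13.8 and 65.2 CPM. The return with NMDA was small for Npas4, which had 2224, 782 and 925 CPM. Errfi1 had 227, 188 and 117 CPM in the same conditions, and Bdnf 306, 321.5 and 129.9 CPM. They were picked for their likeness over these libraries, so this shows what the likeness consists of and is not independent of it.

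**Figure D5:**
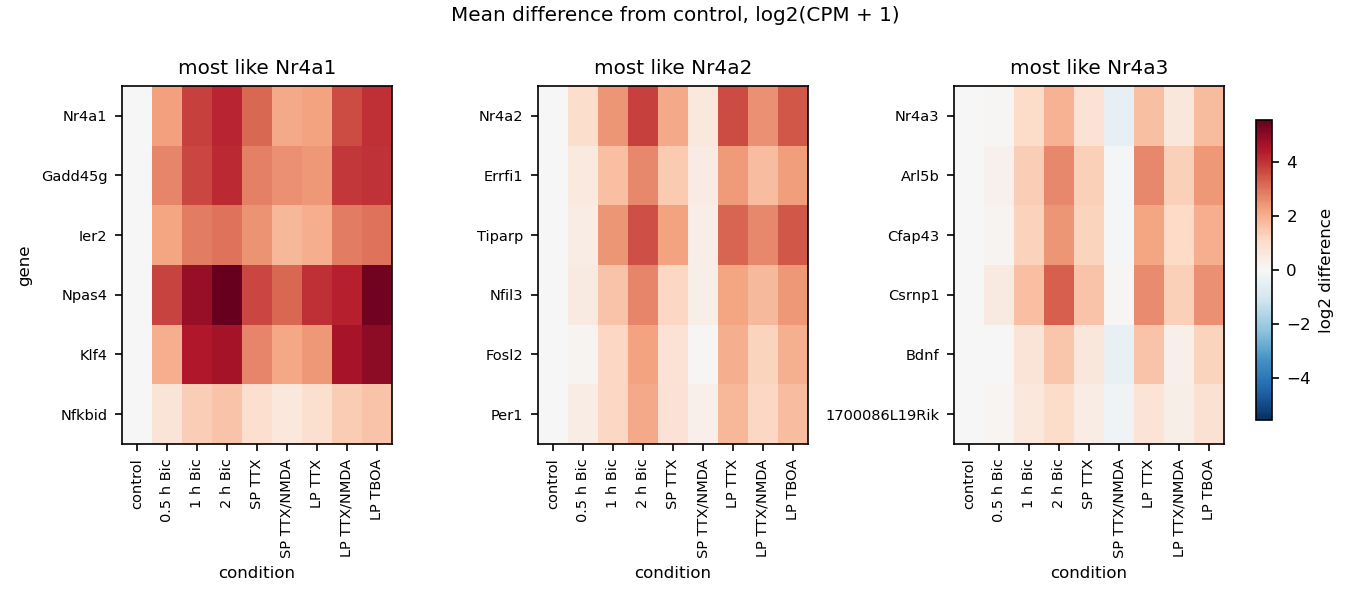
Mean difference from control in log2(CPM + 1) (color) of each member and the 5 genes most like it by r over 45 libraries (rows) in the 9 conditions (columns). In the left panel each gene is paler in LP TTX than in LP TTX/NMDA, Klf4 at 2.40 against 4.58 and Npas4 at 4.055 against 4.317. In the other panels each is darker in LP TTX, Bdnf at 1.6 against 0.29.

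Of the 3 partners of the Nr4a receptors, 1 was called, in 1 of 6 comparisons and close to the threshold. The retinoid X receptors Rxra, Rxrb and Rxrg, which Nr4a1 and Nr4a2 bind, had means of 33.1, 58.1 and 5.54 CPM in 2 h Bic and 30.5, 56.9 and 6.11 CPM in control (adjusted p = 0.51, 0.91 and 0.57 in edgeR). In LP TTX they had 30.3, 52.7 and 5.33 CPM and in LP TTX/NMDA 32.8, 51.0 and 4.88 CPM. None of the 3 was called in 1 h or 2 h Bic against control, in LP TTX against 2 h Bic, in LP TTX/NMDA against LP TTX or in LP TBOA against 2 h Bic. Rxrb was called lower in LP TTX/NMDA against 2 h Bic (log2 fold change −0.20, SE 0.07, adjusted p = 0.048 in edgeR), where 11.1% of all genes were.

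Of the 46 other nuclear receptors, the retinoid X receptors included, 42 to 45 had reads in a comparison. Genes beyond the 3 largest changes of a list are named below where their count is small, after their values were seen. In 1 h Bic against control 0 of 44 were called in edgeR, where 0.965% of all genes were called higher and 60 of 30765 lower. In 2 h Bic 7 of 42 were called higher and 3 lower, where 4.24% and 4.78% of all genes were. The list median at 2 h was 0.01 on the log2 scale, beside −0.01 over all genes tested. The largest changes at 2 h were those of the vitamin D receptor Vdr, from 0.138 to 0.513 CPM (log2 fold change 1.83, SE 0.44), Rorb, an orphan receptor of the clock system, from 2.94 to 6.49 CPM (1.10, SE 0.17), and Nr2e1, known from neural stem cells, from 10.4 to 16.9 CPM (0.68, SE 0.12). The other higher ones were Rara (0.59), Nr1d1 (0.42), Nr2f1 (0.40) and Nr2f2 (0.38). The lower ones were Nr3c1 (−0.48), Nr2c1 (−0.42) and Nr3c2 (−0.34). In LP TTX against 2 h Bic 2 of 44 were higher and 4 lower (3.03% and 1.62% of all genes), led by the glucocorticoid receptor Nr3c1 (0.32, SE 0.07), Nr1d1 of the clock (0.29, SE 0.09) and the retinoic acid receptor Rara (−0.27, SE 0.08), and Esrra (−0.24), Nr1h2 (−0.24) and Thra (−0.20) were lower too. In LP TTX/NMDA against LP TTX 6 of 45 were higher and 5 lower, shares near the 11.6% and 11.8% of all genes. The largest changes were those of Vdr (1.39, SE 0.32), the mineralocorticoid receptor Nr3c2 (−1.10, SE 0.08) and Rorb (0.90, SE 0.15). The others that were lower were Pgr (−0.69), Nr1d1 (−0.67), Nr2c2 (−0.46) and Thra (−0.27). The others that were higher were Nr1h3 (0.70), Nr2e1 (0.42), Esrra (0.26) and Rora (0.24). In LP TTX/NMDA against 2 h Bic 6 of 43 were higher and 8 lower, where 11.7% and 11.1% of all genes were. In LP TBOA against 2 h Bic 0 of 44 were called, where 0.549% of all genes were called lower.

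Of 15 co-regulators and binding partners, 0 were called in 1 h Bic against control in edgeR, where 0.965% of all genes were called higher. In 2 h Bic the kinase Stk11, which Nr4a1 is known to bind, was higher than in control (0.25, SE 0.07). In LP TTX against 2 h Bic the acetyltransferase Ep300 was higher (0.38, SE 0.06) and Stk11 was lower (−0.25, SE 0.06). With NMDA in LP, 7 of 15 were lower than in LP TTX and 0 higher, where 11.8% and 11.6% of all genes were. These shares are over 32852 genes tested and were not taken over expressed genes alone. The list median was −0.15, beside 0.11 over all genes tested and −0.01 over the 13592 genes with a mean of at least 1 CPM. The largest changes of the 7 lower genes were those of Ep300 (−0.77, SE 0.06), the coactivator Ncoa3 (−0.60, SE 0.07) and the corepressor Rcor1 (−0.54, SE 0.07). Against 2 h Bic 8 of 15 were lower with TTX/NMDA (11.1% of all genes were) and Bcl2, a survival factor that Nr4a1 is known to bind, was higher (0.39). With TBOA 0 of 15 were called, where 0.549% of all genes were called lower.

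The 16 genes of upstream signalling showed the CREB family on both sides. In 1 h Bic against control Srf alone was called (0.61), where 0.965% of all genes were called higher. In 2 h Bic 4 were higher, Mef2d (0.30) and Hdac5 (0.52) among them, and 1 lower (4.24% and 4.78% of all genes). Crem, a relative of CREB that can repress, rose from 14.9 to 32.5 CPM (log2 fold change 1.12, SE 0.08), and Srf, which acts at CArG boxes, rose from 34.1 to 61.0 CPM (0.83, SE 0.08). Creb1 itself fell from 48.9 to 30.5 CPM (−0.69, SE 0.08). In LP TTX against 2 h Bic Creb1 was higher (0.31, SE 0.08) and Hdac5, a histone deacetylase that binds Mef2, lower (−0.31, SE 0.06). With NMDA in LP 9 of 16 were lower than in LP TTX, where 11.8% of all genes were, and Hdac7 was higher (0.47). Of the 32852 genes tested, 13592 had a mean of at least 1 CPM, and the share was not taken over those alone. The list median was −0.31, beside 0.11 over all genes tested and −0.01 over those with a mean of at least 1 CPM. Among the 9 lower genes, Camk4, a kinase of CREB, fell from 402 to 230.5 CPM (−0.81, SE 0.08), Srf from 51.8 to 31.9 CPM (−0.70, SE 0.08) and Mef2a from 208 to 147 CPM (−0.51, SE 0.08). Against 2 h Bic 11 of 16 were lower with TTX/NMDA (11.1% of all genes were) and Creb1 was higher (0.24). With TBOA 0 of 16 were called, where 0.549% of all genes were called lower.

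Of 10 genes known to be controlled by Nr4a receptors, Bdnf was called higher in 1 h Bic (0.69) and 2 genes were in 2 h Bic against control, Crh, corticotropin-releasing hormone, from 0.713 to 2.23 CPM (1.73, SE 0.23), and Bdnf (1.50, SE 0.10). Of all genes, 0.965% were called higher at 1 h and 4.24% at 2 h. In LP TTX against 2 h Bic 0 of 10 were called in edgeR, where 3.03% of all genes were called higher and 1.62% lower. With NMDA in LP, Bdnf was lower than in LP TTX (−1.32, SE 0.09) and the secreted phosphoprotein Spp1 higher (0.73, SE 0.14). That is 1 of 10 in each direction, near the 11.8% of all genes called lower and 11.6% called higher. Against 2 h Bic, Spp1 was higher (0.74) and Bdnf lower (−1.25) with TTX/NMDA, and Bdnf was lower (−0.29) with TBOA. With TTX/NMDA 11.7% of all genes were called higher and 11.1% lower, and with TBOA 0.549% were called lower. The list median was 0.16 in 2 h Bic against control and −0.07 in LP TTX/NMDA against 2 h Bic, beside −0.01 and 0.11 over all genes tested. Over genes with a mean of at least 1 CPM the medians were −0.002 and 0.0045.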

How the data were processed

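Poly-A RNA from 45 libraries (9 conditions, 5 culture preparations) was sequenced as single reads. The authors aligned with STAR 2.5.4b to GRCm38 with Ensembl release 94 and counted uniquely assigned reads per gene and strand with featureCounts 1.6.5. The deposited values are raw read counts, with no normalization. Symbols and coordinates came from GENCODE M21 of the same build, a later release than the counting used, so exon lengths may differ slightly.

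Each comparison was fitted on its own libraries with edgeR 4.0.16 (R 4.3.3; TMM, glmQLFit, glmQLFTest) over genes with at least 1 read, with Benjamini-Hochberg adjustment over all genes tested and without a block. The study's tests were pairwise too, and whether they held a block is not given in the sources used here. The standard error is the log2 fold change divided by the root of F. DESeq2 1.42.0 was an alternative. Ratios of members within a library (counts + 0.5) and neighbours in the order of levels were compared with exact two-sided permutation tests (scipy 1.17.1), adjusted over 30 and 24 tests. Likeness was Pearson's r of log2(CPM + 1) over genes with a mean of at least 1 CPM. The fits were tested on simulated data.

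The replicate number names the culture preparation in the labels and pairs the libraries. Deviations from condition means correlated by 0.43 on average between libraries of the same number and by −0.11 between libraries of different numbers, over 13592 genes. Named genes were the 3 members, the 5 most like each, gene models within 20000 bp, the retinoid X receptors, and of the other lists up to 3 called genes with the largest change in each of 3 comparisons, of which 1 gene is not reported here. The members and lists were chosen with earlier results of these data known. Promoter sequences came from RefSeq (GRCm38.p6), in which all 3 members were matched. Depth ranged from 11316580 to 81129276 counts, and the members' counts of at least 468 leave little counting error beside the spread between preparations.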

Additional observations from a re-analysis of the deposited data

Results flagged for a closer look

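The effect of TTX on Nr4a1 differed between the protocols by an interaction test. The LP passive effect minus the SP passive effect was −1.36 on the log2 scale (SE 0.16, adjusted p = 7.4e-07 in edgeR), and it ranged from −1.50 to −1.32 with 1 preparation left out. In SP, Nr4a1 was lower than in uninterrupted Bic in 5 of 5 preparations with a mean change of −32.9% ± 10.3, and in LP in 5 of 5 with −74.5% ± 5.12 (SD, n = 5).

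The effect of adding NMDA to TTX on Nr4a1 differed between the protocols in direction. The LP active effect minus the SP active effect was 2.40 (SE 0.19, adjusted p = 1.2e-11 in edgeR), and it ranged from 2.24 to 2.52 with 1 preparation left out. In SP the mean change was −51.7% ± 11.5, lower in 5 of 5 preparations, and in LP 165% ± 55.6, higher in 5 of 5 (SD, n = 5).

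In none of the 27 sets of 5 libraries (3 genes in 9 conditions) did the highest or lowest library stand apart by Dixon's test at its critical value of 0.71, where chance alone would mark about 1 set in 20.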

How the results depend on the processing

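Of 660 refits of the members' log2 fold changes under alternatives (DESeq2, RLE factors, filterByExpr, the preparation as a block, 1 fit over 45 libraries, each preparation left out), 627 kept direction and side of the threshold. With the replicate block over genes with at least 1 read, whose variance prior ignores differences between genes, values not called without it were called: Nr4a2 −0.35 and Nr4a3 −0.23 in SP TTX against 1 h Bic, Nr4a2 −0.18 in LP TTX against 2 h Bic, Nr4a1 −0.16 and Nr4a3 −0.17 in LP TBOA against 2 h Bic, Nr4a2 −0.15 in LP TBOA against LP TTX, Nr4a1 −0.17 in SP TTX/NMDA against 0.5 h Bic and −0.17 in LP TTX/NMDA against 1 h Bic, and Nr4a2 0.49 and Nr4a3 0.23 in the active effect, LP minus SP. With the block over genes passing filterByExpr, Nr4a2 was called in LP TTX against 2 h Bic (−0.19) and in the active effect, LP minus SP (0.48). The block changed no other call on a member. DESeq2 called Nr4a2 in LP TTX against 2 h Bic (−0.19). Calls were lost for Nr4a2 in SP TTX/NMDA against 0.5 h Bic over filterByExpr genes (−0.44), in DESeq2 (−0.45) and in 1 fit over 45 libraries (−0.43). They were lost in 1 fit over 45 libraries for Nr4a3 in LP TTX against 2 h Bic (−0.23) and Nr4a2 in LP TBOA against 2 h Bic (−0.33). The cause was not tested.

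With 1 preparation left out, calls changed within these ranges: SP TTX against 1 h Bic, −0.45 to −0.27 for Nr4a2 and −0.32 to −0.14 for Nr4a3; LP TTX against 2 h Bic, −0.26 to −0.19 for Nr4a3; LP TBOA against 2 h Bic, −0.39 to −0.26 for Nr4a2; SP TTX/NMDA against 0.5 h Bic, −0.49 to −0.34 for Nr4a2; LP TTX/NMDA against 1 h Bic, −0.27 to −0.068 for Nr4a1; active effect, LP minus SP, 0.42 to 0.59 for Nr4a2. Values that were never called changed sign: Nr4a2 in LP TTX/NMDA against 1 h Bic (−0.066 without preparation 3, up to 0.20) and Nr4a3 in the passive effect, LP minus SP (−0.055 to 0.051, above 0 without preparation 3 or 7). Small ratios turned too: Nr4a3 to Nr4a2 in LP TTX/NMDA against 2 h Bic (−0.062 to 0.0078, above 0 without 3) and against LP TTX (−0.0004 to 0.055, below 0 without 7), and Nr4a3 to Nr4a1 with TBOA (−0.034 to 0.016, above 0 without 7 or 8). Among neighbours, Nr4a2 in LP TTX/NMDA and 1 h Bic (−0.078 without 3, up to 0.19) and Nr4a1 in LP TTX and 0.5 h Bic (0.07 without 7, 0.13 without 8) turned. The number of ratio tests passing ranged from 0 to 21 and of neighbour tests from 0 to 0, since an exact permutation test of 4 against 4 libraries cannot go below p = 0.029. A sign-flip test over 5 preparations, the paired form, cannot go below 0.063 and was read as values only.

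The percent of all genes called moved by over 1.5 times in 108 of 275 refits. From lowest to highest it was 0.227 to 0.541 for 0.5 h Bic (0.289 in the report), 0.855 to 2.92 for 1 h Bic (0.965) and 3.6 to 14.4 for 2 h Bic against control (4.24; lower calls 3.71 to 15, 4.78), 0.470 to 1.61 for 1 h against 0.5 h Bic (0.634), 1.94 to 11.0 for 2 h against 1 h Bic (2.53). For lower calls it was 0.140 to 0.759 (0.252), 2.29 to 10.3 (3.32) and 2.2 to 15.6 (3.41) for the SP passive, active and total effects, 1.29 to 17.3 for SP TTX/NMDA against 0.5 h Bic (2.58), 0.680 to 16.2 (1.62), 10.4 to 28.5 (11.8) and 9.02 to 25.7 (11.1) for the LP passive, active and total effects, 0.270 to 2.23 for TBOA against 2 h Bic (0.549), 1.80 to 14.4 for LP TTX against 1 h Bic (2.85), 8.60 to 25.1 for LP TTX/NMDA against 1 h Bic (10.2) and 0.0503 to 0.621 for the passive effect, LP minus SP (0.0699). For higher calls it was 8.55 to 33.6 for the LP active effect (11.6), 2.17 to 15.7 for the LP passive (3.03) and 9.33 to 30.9 for the LP total effect (11.7), 0.529 to 3.5 for TBOA against LP TTX (0.759), 0.202 to 0.644 for SP TTX against 0.5 h Bic (0.296), 3.48 to 14.8 for LP TTX against 1 h Bic (4.34), 3.82 to 13.3 for LP TTX against control (4.33) and 0.341 to 9.85 for the active effect, LP minus SP (0.722). The highest values came from fits with the block. Of the 5 genes most like each member, 1 to 3 were shared when r was taken over 9 condition means, 3 or 4 with preparation means removed and 4 or 5 with a pseudocount of 0.1 CPM.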
